A study of Mus musculus with 36 samples.

Results

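The mitochondrial chromosome of the mouse carries 37 genes, and all of them are described here, chosen only by their place on chromosome M in the deposited count table of 55487 genes. They are 13 protein-coding genes, 2 ribosomal RNA genes and 22 transfer RNA genes. Together they took 42009751 of the 1594759628 read pairs assigned to genes in 36 libraries, or 2.63%. The study asked how 2 altered alleles of Ddx3x change the RNAs that ribosomes hold in the developing cortex. It spun lysates of female cortex at E14.5 through sucrose gradients and sequenced RNA from polysome fractions (RNAs with several ribosomes), from monosome fractions (RNAs with a single ribosome) and from the input, the cleared lysate before the gradient. Each sample was a pool of cortices from 2 embryos of the same genotype.

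The 12 groups of 3 libraries come from 2 crosses, 2 genotypes and 3 fractions. In the LoF cross, conditional heterozygotes (cHet) carried Emx1-Cre/+ and Ddx3x lox/+, and their controls carried Ddx3x lox/+ without Cre. In the T532M cross, cHet carried Emx1-Cre/+ together with Ddx3x-T532M lox/+, while the control genotype there was Emx1-Cre/+. Cre therefore goes with the genotype only in the LoF cross, and there the effects of Cre and of the allele cannot be told apart. The Emx1 promoter drives Cre in the dorsal telencephalon, so cells outside that lineage were left unrecombined in every pool. The polysome, monosome and input libraries of a pool carry the same number in the labels and come from 1 lysate. Nothing in the labels says whether pools shared a litter or a day, so p-values measure only the spread between these samples.

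Mitochondria keep a small circular genome that is copied into long RNAs from both strands. These precursors are cut mainly at the transfer RNAs that lie between the other genes. The messenger RNAs code for membrane subunits of the respiratory chain and of ATP synthase, and they are translated inside the organelle by mitochondrial ribosomes, which are built on the mitochondrial ribosomal RNAs. DDX3X is an RNA helicase of the cytosol that helps cytosolic ribosomes start on structured mRNAs. A sucrose gradient sorts particles by their sedimentation, so an RNA in a fraction need not be bound to a cytosolic ribosome.

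Not every mitochondrial gene can be read equally well from these counts, because a stretch of chromosome 1 holds a copy of part of the mitochondrial genome. A read that matches both places equally has no unique position. The sequences below are shown because they differ in how far the copy matches: that of mt-Co2 (ENSMUSG00000064354.1), which codes for cytochrome c oxidase subunit II, does so throughout, and that of mt-Co1 (ENSMUSG00000064351.1), which codes for subunit I, only in part. They were read from the GENCODE release M21 transcripts of GRCm38, the build of the count table, and are given 5′ to 3′ on the coding strand. The opening 60 bases of mt-Co2 (chrM:7013-7072, plus strand) and of its chromosome 1 copy Gm28661 (chr1:24615506-24615565, minus strand) are the same base for base. In mt-Co1 (chrM:6381-6440, plus strand) and its copy Gm29216 (chr1:24616138-24616197, minus strand), capitals mark the bases that differ.
mt-Co2: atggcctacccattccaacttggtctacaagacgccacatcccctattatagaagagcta
Gm28661: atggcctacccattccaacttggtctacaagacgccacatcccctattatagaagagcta
mt-Co1: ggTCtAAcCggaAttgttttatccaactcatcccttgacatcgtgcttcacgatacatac
Gm29216: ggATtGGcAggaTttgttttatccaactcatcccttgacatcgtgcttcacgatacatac

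The 6 gene models of the copy that were compared span 4663 bases of chromosome 1 (24611535 to 24616197, minus strand). Gm28661 matched mt-Co2 at 681 of 681 bases, Gm28437 matched mt-Co3 at 783 of 783, Gm10925 matched mt-Atp6 at 678 of 678 and Gm28439 matched mt-Nd4 at 876 of 876. Gm28438 differed from mt-Nd3 by T3C and matched at the other 344 of 345 bases. Gm29216 matched mt-Co1 at 486 of 492 bases, and all 6 of its differences (T1056A, C1057T, A1059G, A1060G, C1062A and A1066T, counted from the start of mt-Co1) fell in the stretch printed above. In each token the mitochondrial base comes first. Between the copies of mt-Atp6 and mt-Co2 the annotation leaves 233 bases without a gene model (24614652 to 24614884), where a copy of mt-Atp8 would lie, so that gene could not be compared with annotated transcripts there.

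Cut into every run of 50 bases, the read length, 100% of the mt-Co2 sequence was also present in another annotated transcript. The share was 99.9% for mt-Co3, 99.5% for mt-Atp6, 98.8% for mt-Nd4l and 98% for mt-Nd3. It was 62.2% for mt-Nd4 and 51.1% for mt-Co1, 8.19% for mt-Nd2, 7.61% for mt-Nd5 and 1.04% for the ribosomal RNA mt-Rnr2. No such run of mt-Rnr1, mt-Nd1, mt-Nd6, mt-Cytb or mt-Atp8 was shared. For mt-Nd4l the other gene with the most shared runs was Gm10222. It is not among the gene models of the copy compared above, and its level is not part of their sum below. The 5 mRNA genes with at least 98% of their sequence shared, together with mt-Atp8, were the 6 with the fewest read pairs.

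These 6 low genes held 1322 read pairs in all 36 libraries. The counts were 546 for mt-Nd3 and 10 for mt-Nd4l (subunits of complex I), 344 for mt-Co2 and 326 for mt-Co3 (subunits of complex IV), and 79 for mt-Atp6 and 17 for mt-Atp8 (subunits of ATP synthase). By contrast mt-Co1 alone had 17235063 and mt-Cytb, the cytochrome b of complex III, had 12577164. The level of a low gene here is that of its uniquely placed read pairs and does not give the abundance of the mRNA. The 6 nuclear models were themselves low, with summed levels of 0 to 0.12 CPM (read counts scaled to library size) in polysome libraries, 1.99 to 6.63 CPM in monosome libraries and 1.68 to 3.82 CPM in input libraries. Whether their read pairs come from chromosome 1 or from mitochondrial RNA cannot be told apart.

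**Figure D1:**
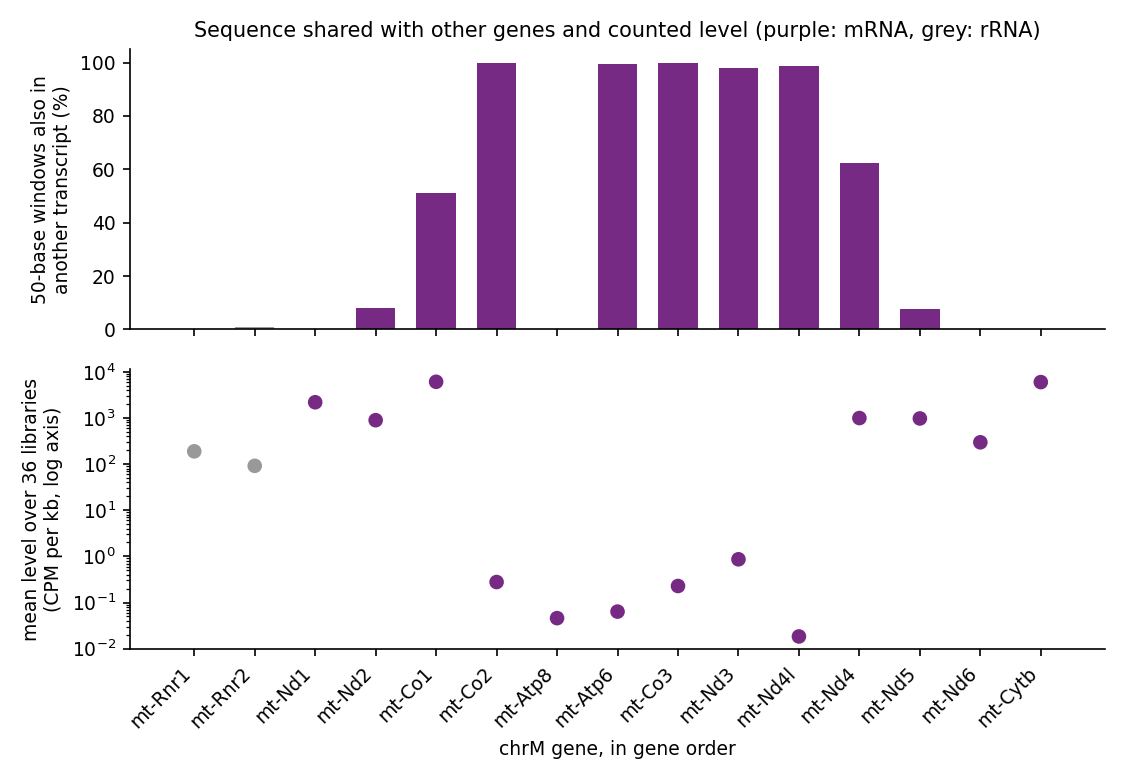
Upper panel, the share of 50-base runs of each mitochondrial mRNA or rRNA gene (in gene order) that also occur in another annotated transcript, in percent. Lower panel, the mean level over 36 libraries in CPM per kb of gene length on a log axis. Genes with 98 to 100% shared sequence lie below 1 CPM per kb, as does mt-Atp8 with none, and the other 9 genes lie far above.

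For mt-Atp8 no run shared with an annotated transcript was found, yet it was as low as its neighbours. All 12 polysome libraries had 0 read pairs, which allows a level of up to 0.00762 CPM over the 12 libraries together (3 counts, for counting error only). Monosome libraries had 1, 0 and 0 in LoF cHet, 0, 3 and 1 in LoF controls, 1, 0 and 3 in T532M cHet, and 1, 1 and 0 in T532M controls. Input libraries had 0, 0 and 0 in LoF cHet, 2, 1 and 1 in LoF controls, 2, 0 and 0 in T532M cHet, and 0, 0 and 0 in T532M controls. The gene spans 204 bases and shares 43 of them with mt-Atp6, and the counting kept no read pair that overlapped both. Its length, this overlap and a possible copy in the chromosome 1 stretch without a gene model were not tested as reasons for its low count.

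The transfer RNA genes are 59 to 75 bases long and were nearly absent from the counts. They held 1940 read pairs in all, 7 of the 22 had none and 2 had only 1 or 2. None reached a mean of 1 CPM over the 36 libraries, and 0 read pairs in all of them allows up to 0.00185 CPM. The counting kept no read pair that overlapped several genes, so these counts do not give the abundance of the transfer RNAs. The part of this rule and of gene length in the low counts was not tested. Of the 22 genes the highest was mt-Tl1 (ENSMUSG00000064340.1, chrM:2676-2750, plus strand), with 991 read pairs. It is a transfer RNA for leucine that lies directly between mt-Rnr2 and mt-Nd1. Its 75 bases are printed because it is 1 of only 2 transfer RNA genes that entered the tests.
mt-Tl1: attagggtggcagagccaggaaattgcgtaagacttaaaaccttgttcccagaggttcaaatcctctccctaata

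The low-count filter of the statistical tests kept 14 of the 37 genes and left out 23. The 14 were 10 mRNA genes, both ribosomal RNAs, mt-Tl1 and mt-Tt, a transfer RNA for threonine with 317 read pairs. Of these, 9 had at least 30 read pairs in each of the 36 libraries, and the account below rests mainly on them. They are the ribosomal RNA of the small mitochondrial subunit, mt-Rnr1 (ENSMUSG00000064337.1, chrM:70-1024), and that of the large subunit, mt-Rnr2 (ENSMUSG00000064339.1, chrM:1094-2675). The complex I subunits are mt-Nd1 (chrM:2751-3707), mt-Nd2 (chrM:3914-4951), mt-Nd4 (chrM:10167-11544), mt-Nd5 (chrM:11742-13565) and mt-Nd6 (chrM:13552-14070). The remaining pair are mt-Co1 (chrM:5328-6872) of complex IV and mt-Cytb (chrM:14145-15288) of complex III. All lie on the plus strand except mt-Nd6, the only mRNA gene on the minus strand, which shares 14 bases with the opposite strand of mt-Nd5. Counting used strand, so reads of mt-Nd5 and mt-Nd6 were told apart.

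Mitochondrial RNA filled a larger share of the monosome than of the input and was nearly gone from the polysome. The share of read pairs on chromosome M in LoF cHet pools 1, 2 and 3 was 0.0307, 0.0217 and 0.0399% in polysome, 6.91, 4.97 and 5.46% in monosome, and 1.72, 2.16 and 1.74% in input libraries. In LoF control pools it was 0.0194, 0.0377 and 0.0249% in polysome, 6.47, 10.2 and 6.98% in monosome, and 3.38, 2.71 and 2.39% in input. The 3 ranges of the fractions did not overlap, and LoF control pool 2 had the highest monosome share of the 12. In T532M cHet pools the share was 0.0524, 0.0448 and 0.0289% in polysome, 6.90, 4.57 and 3.99% in monosome, and 3.62, 2.20 and 2.08% in input. In T532M control pools it was 0.0291, 0.0420 and 0.0356% in polysome, 6.75, 3.82 and 4.41% in monosome, and 1.96, 2.63 and 2.7% in input.

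Within pools the polysome share was lower than the monosome share in 12 of 12, by a median of 176-fold. The monosome share exceeded the input share in 12 of 12 pools, by a median of 2.19-fold. Each has an exact two-sided sign-flip permutation p of 0.000488, the smallest that 12 pools can give, and an adjusted p of 0.000488 over both tests. The depth behind these shares was high. Polysome libraries held 44214830 to 57935512 assigned read pairs, 8781 to 23495 of them mitochondrial. Monosome libraries held 36999365 to 49049947, with 1602819 to 4219146 mitochondrial, and input libraries 38059093 to 46271375, with 666507 to 1462238. The exact (Clopper-Pearson) 95% interval of the lowest share, 0.0194%, ran from 0.019 to 0.0199%, which covers counting error only and is far narrower than the spread between pools.

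**Figure D2:**
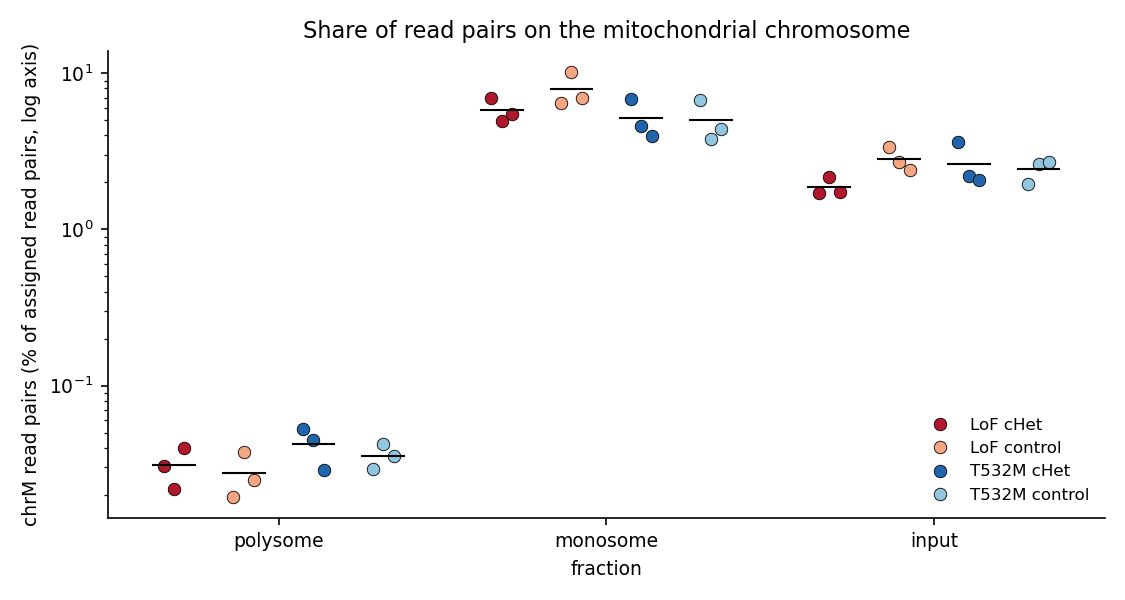
Share of assigned read pairs on the mitochondrial chromosome in each of 36 libraries, in percent on a log axis, by fraction and group. Points are pools and bars are means of 3. Polysome libraries lie between 0.0194 and 0.0524%, monosome libraries between 3.82 and 10.2%, and input libraries between 1.72 and 3.62%.

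These values are shares of a library, so a rise says nothing of the amount of RNA, and fewer mitochondria in the fraction and less RNA per mitochondrion cannot be told apart. The summed level of 6 nuclear-retained RNAs, among them Malat1 and Xist, was also higher in monosome than in input. Unlike the mitochondrial share, the polysome range of this sum lay within that of the input. It was 93.6 to 168 CPM in polysome libraries, 991 to 1630 CPM in monosome libraries and 54.0 to 320 CPM in input libraries. Malat1 made up most of the sum in monosome (median 1190 CPM, beside 1380 CPM for the sum) and in input (72.2 beside 94.1 CPM). Single RNAs differed from the sum. Xist was at 33.9 to 63.8 CPM in polysome and 5.64 to 15.4 CPM in input. Kcnq1ot1, at 4.72 to 10.4 and 0.367 to 1.52 CPM, also lay above its input range. The polysome ranges of Malat1, Meg3, Neat1 and Snhg11 overlapped those of the input. In monosome against input 5 of the 6 were called higher in LoF controls and 5 of 6 in T532M controls (edgeR, adjusted p under 0.05), where 32.2% and 32.1% of all tested genes were called higher, and none of the 6 was called lower in either. The mRNAs of 12 nuclear genes for the outer membrane and protein import of mitochondria, which are read by cytosolic ribosomes, had a summed level of 2640 to 3500 CPM in polysome libraries, 835 to 996 CPM in monosome libraries and 1430 to 1550 CPM in input libraries. The part of other large particles in the monosome share was not tested.

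No relation between the input and the monosome share passed a test. Across the 12 pools Pearson's r was 0.21 (permutation p = 0.512, adjusted p = 0.533 over 3 relations) and Spearman's rho was 0.09 (permutation p = 0.783, adjusted p = 0.803), and r was 0.09 without the 2 pools farthest from the median input. Within the LoF cross r was 0.34 (exact permutation p = 0.5, 6 pools) and 0.84 without its 2 farthest pools, which leaves 4. Within the T532M cross r was 0.34 (exact permutation p = 0.533, 6 pools) and -0.09 without 2.

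Levels of the 9 deeply counted RNAs are compared between genes in CPM per kb of gene length. In input the order of the medians over 12 libraries was mt-Co1 (6098 CPM per kb), mt-Cytb (3614), mt-Nd1 (3164), mt-Rnr1 (501.8), mt-Nd4 (413.6), mt-Nd2 (328.6), mt-Nd6 (289), mt-Rnr2 (205.2) and mt-Nd5 (202.2). The ranges of mt-Co1 (4678 to 8945), mt-Cytb (2299 to 6099) and mt-Nd1 (2260 to 4781) overlapped, as did those of all 6 genes from mt-Rnr1 to mt-Nd5 with their neighbours. No library of the top 3 genes fell to the level of any lower gene, since the highest among these was 876.7 for mt-Nd4 and the lowest among the top 3 was 2260 for mt-Nd1.

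In the monosome the order was mt-Cytb (14840 CPM per kb), mt-Co1 (10620), mt-Nd1 (3284), mt-Nd5 (2685), mt-Nd4 (2520), mt-Nd2 (2286), mt-Nd6 (567.6), mt-Rnr1 (53.8) and mt-Rnr2 (48.5). Here mt-Cytb and mt-Co1 overlapped in range, as did mt-Nd1, mt-Nd5, mt-Nd4 and mt-Nd2, and both ribosomal RNAs lay below every library of mt-Nd6 (lowest 320.1, against at most 109.7 for mt-Rnr1). In the polysome it was mt-Co1 (144.6), mt-Cytb (95.2), mt-Nd1 (49.0), mt-Nd5 (27.1), mt-Nd2 (19.04), mt-Nd4 (18.2), mt-Nd6 (16.2), mt-Rnr1 (4.00) and mt-Rnr2 (3.40), with each range overlapping the next except that of mt-Nd6 (at least 12.52) and mt-Rnr1 (at most 10.17). The level of mt-Co1 and mt-Nd4 is that of the part of the gene where reads can be placed, so their true levels relative to the other genes are not given by these values.

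**Figure D3:**
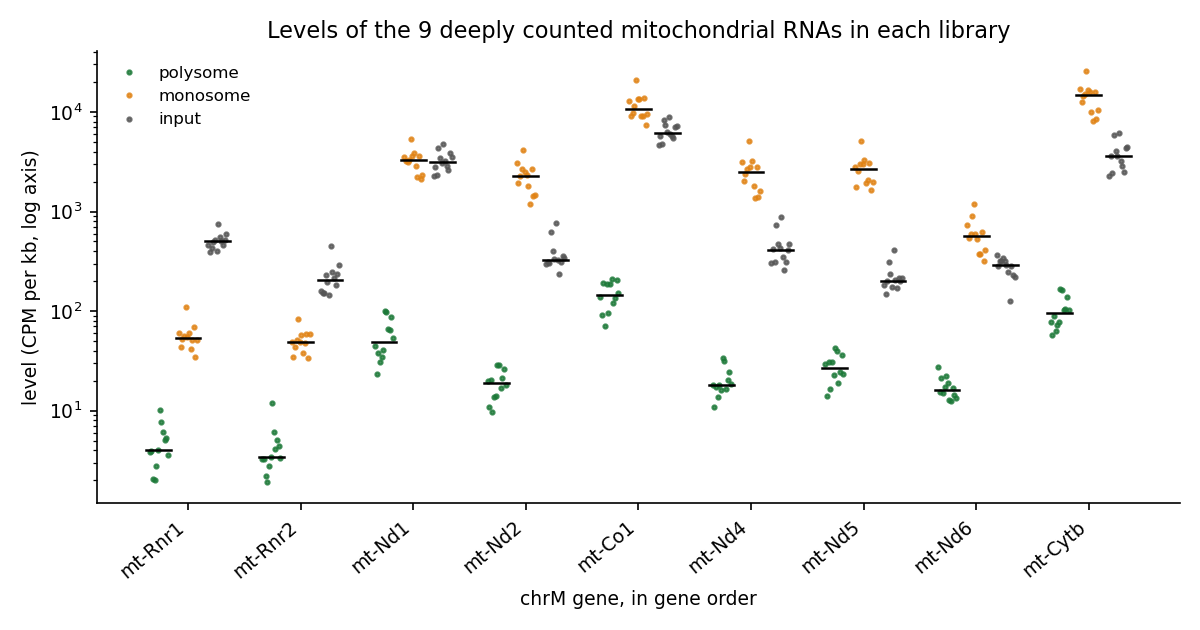
Level of the 9 deeply counted mitochondrial RNAs in each of 36 libraries, in CPM per kb on a log axis, in gene order, by fraction. Points are libraries and bars are medians of 12. Input levels of both ribosomal RNAs exceed their monosome levels, and the order turns round for mt-Nd2, mt-Nd4, mt-Nd5 and mt-Cytb.

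The question of where each mitochondrial RNA sediments was first asked of the ribosomal RNAs, the scaffolds of mitochondrial ribosomes. The level of mt-Rnr1 in LoF controls was 1.91, 2.65 and 3.85 CPM in polysome, 54.2, 104.8 and 53.0 CPM in monosome, and 472.3, 491.3 and 387.5 CPM in input. In T532M controls it was 4.86, 5.06 and 3.39 CPM in polysome, 65.3, 32.8 and 49.2 CPM in monosome, and 437, 499.5 and 572.6 CPM in input. The fractions did not overlap, and the input was the highest by far. For mt-Rnr2 in LoF controls the levels were 3.01, 4.39 and 5.44 CPM in polysome, 81.0, 132.3 and 76.9 CPM in monosome, and 366.1, 306.6 and 227.1 CPM in input. In T532M controls they were 8.003, 7.05 and 5.33 CPM in polysome, 92.1, 53.5 and 92.4 CPM in monosome, and 289.1, 373.4 and 463.5 CPM in input. Again each fraction stood apart from the others in both crosses.

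For mt-Co1, the mRNA with the most read pairs, LoF controls had 110.4, 289.3 and 149.3 CPM in polysome, 17610, 32610 and 20790 CPM in monosome, and 12950, 11340 and 9667 CPM in input. T532M controls had 207.2, 318.6 and 234.8 CPM in polysome, 21300, 11530 and 14620 CPM in monosome, and 8449, 10900 and 11170 CPM in input. Monosome and polysome were far apart, while the highest T532M input library lay close to the lowest monosome library. For mt-Nd6, from the other strand, LoF controls had 7.86, 8.93 and 11.5 CPM in polysome, 463.4, 615.6 and 311.1 CPM in monosome, and 163.4, 176.9 and 164.4 CPM in input. T532M controls had 8.78, 7.43 and 6.93 CPM in polysome, 319.4, 166.1 and 213.2 CPM in monosome, and 147.7, 120.5 and 113.7 CPM in input. Its monosome libraries all exceeded its input libraries in both crosses.

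In monosome against input, 5 mitochondrial mRNAs (mt-Nd2, mt-Nd4, mt-Nd5, mt-Nd6 and mt-Cytb) rose in the controls of both crosses, and both ribosomal RNAs fell in both. The counts of both tested transfer RNAs fell in both as well, as did the uniquely placed read pairs of mt-Nd3, which shares 98% of its sequence. In LoF controls 11 of the 14 tested genes passed an adjusted p of 0.05 (edgeR, as for all fits below), 6 higher and 5 lower, where 62.7% of all tested genes passed (32.2% higher and 30.6% lower). The largest rise was that of mt-Nd5, by 3.95 on the log2 scale (SE 0.33, adjusted p = 3.93e-09). Rises of 2.78 for mt-Nd2 (SE 0.27, adjusted p = 3.62e-08), 2.703 for mt-Nd4 (SE 0.28, adjusted p = 6.56e-08) and 2.08 for mt-Cytb (SE 0.24, adjusted p = 3.34e-07) followed. Smaller ones were 1.46 for mt-Nd6 (SE 0.21, adjusted p = 7.17e-06) and 1.07 for mt-Co1 (SE 0.31, adjusted p = 0.0052). The falls were -2.67 for mt-Rnr1 (SE 0.26, adjusted p = 3.30e-08) and -1.63 for mt-Rnr2 (SE 0.22, adjusted p = 2.64e-06), and mt-Tl1, mt-Tt and mt-Nd3 also fell. The last 3 rest on few read pairs, with 28 in monosome against 226 in input for mt-Tl1, 4 against 63 for mt-Tt and 14 against 154 for mt-Nd3. mt-Nd1 did not pass (log2 fold change 0.18, SE 0.21, adjusted p = 0.467), nor did mt-Co2 and mt-Co3.

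In T532M controls 11 of 14 passed as well, 5 higher and 6 lower, where 63.1% of all genes passed (32.1% higher and 31% lower). The rises were 3.38 for mt-Nd5 (SE 0.37, adjusted p = 2.40e-07), 2.43 for mt-Nd2 (SE 0.37, adjusted p = 1.50e-05), 2.25 for mt-Nd4 (SE 0.42, adjusted p = 0.00013), 1.59 for mt-Cytb (SE 0.33, adjusted p = 0.000428) and 0.84 for mt-Nd6 (SE 0.27, adjusted p = 0.0111). Without T532M control monosome replicate 1, mt-Nd6 no longer passed (0.54, adjusted p = 0.098). mt-Co1 had a log2 fold change of 0.60 and an adjusted p of 0.0576. mt-Rnr1 fell (-3.39, SE 0.25, adjusted p = 1.93e-09) and so did mt-Rnr2 (-2.28, SE 0.34, adjusted p = 1.21e-05), mt-Tl1, mt-Tt, mt-Nd3 and mt-Co3. The median log2 fold change of the 14 genes was 0.66 in LoF and -0.43 in T532M controls, beside 0.04 and 0.03 over all genes tested.

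The order of the genes was steadier than the size of their changes. Ratios of monosome over input within each of the 12 pools, cHet pools included, put mt-Rnr1 lowest, mt-Rnr2 next, mt-Nd1 in the third place and mt-Nd5 highest in every pool. The median was -3.15 on the log2 scale for mt-Rnr1 (8.87-fold lower in monosome) and -2.14 for mt-Rnr2 (4.42-fold lower). The median of mt-Nd1 was 0.02, with 6 of 12 pools higher. All 12 pools were higher for the other 6 genes, with median folds of 1.60 for mt-Co1, 1.88 for mt-Nd6, 3.31 for mt-Cytb, 5.21 for mt-Nd4, 5.89 for mt-Nd2 and 12.1 for mt-Nd5. All genes of a library share its scaling, so the order within a pool does not depend on it.

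Ribosomal RNA thus made up a smaller part of the mitochondrial reads in the gradient's monosome than in the lysate. Its share of chromosome M read pairs was 2.17 ± 0.751% in polysome, 0.283 ± 0.0508% in monosome and 4.25 ± 0.716% in input (SD, n = 12 pools). The mRNA share was 97.8 ± 0.752% in polysome, 99.7 ± 0.0511% in monosome and 95.7 ± 0.717% in input. The transfer RNA share was 0.0229 ± 0.0164% in polysome, 0.00132 ± 0.000508% in monosome and 0.0131 ± 0.00357% in input. The rRNA share was lower in monosome than in input in 12 of 12 pools and higher in polysome than in monosome in 12 of 12 (exact sign-flip permutation p = 0.000488 each, the smallest possible, and adjusted p = 0.000586 over 6 tests). Gene models over cytosolic ribosomal and small non-coding RNAs (Rn7sk among them) also varied, at 0.755 to 2.64% of read pairs in polysome, 0.264 to 0.904% in monosome and 0.566 to 5.27% in input. The sources used here do not state whether ribosomal RNA was removed before sequencing, and its part in the rRNA shares was not tested.

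Polysome against monosome in controls was a fall for nearly all members. In LoF controls 13 of 14 passed, all lower, where 81.2% of all genes passed and 44.9% passed as lower. The steepest falls were -8.08 for mt-Cytb (SE 0.31, adjusted p = 2.50e-14), -7.97 for mt-Nd2 (SE 0.35, adjusted p = 9.86e-14), -7.80 for mt-Nd4 (SE 0.35, adjusted p = 1.47e-13) and -7.31 for mt-Nd5 (SE 0.38, adjusted p = 1.35e-12). mt-Co1 (-7.02, SE 0.39), mt-Nd1 (-6.87, SE 0.27) and mt-Nd6 (-5.63, SE 0.26) came next. The ribosomal RNAs fell least among the deeply counted genes, by 4.66 for mt-Rnr1 (SE 0.30) and 4.50 for mt-Rnr2 (SE 0.26). mt-Co2, mt-Co3 and mt-Nd3 had 0 read pairs in the 3 polysome libraries and passed. Against a floor of 3 counts over the group their uniquely placed read pairs were at least 15.2-fold, 14.7-fold and 3.13-fold lower. mt-Tl1 passed on 1 read pair in polysome and 28 in monosome, and mt-Tt, with 0 and 4, did not.

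In T532M controls 12 of 14 passed, all lower, where 79.9% of all genes passed and 43.9% passed as lower. The falls were -6.67 for mt-Cytb (SE 0.42), -6.53 for mt-Nd4 (SE 0.51), -6.42 for mt-Nd2 (SE 0.45), -6.32 for mt-Nd5 (SE 0.42), -5.97 for mt-Co1 (SE 0.33), -5.30 for mt-Nd1 (SE 0.32) and -4.92 for mt-Nd6 (SE 0.32). Those of mt-Rnr2 (-3.55, SE 0.37) and mt-Rnr1 (-3.48, SE 0.27) were again the smallest of the 9. mt-Nd3 had 0 polysome read pairs and was at least 3.17-fold lower, mt-Co2 and mt-Co3 passed with 2 and 1 polysome read pairs against 30 and 13 in monosome, and mt-Tl1 and mt-Tt did not pass. The median over the 14 genes, with genes at 0 set to their bound, was -5.14 in LoF and -4.24 in T532M controls, beside -0.31 over all genes tested in each. Another scaling, DESeq2 size factors, placed that median of all genes at -0.26 in LoF and -0.17 in T532M controls, so the members' falls hold relative to it.

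Within the 12 pools the polysome over monosome ratio put mt-Nd6 in the seventh place of 9 from the lowest in every pool, with the ribosomal RNAs above it. The median was 29.5-fold lower for mt-Nd6, 13.6-fold lower for mt-Rnr1 and 12.9-fold lower for mt-Rnr2. It was 66.9-fold lower for mt-Nd1, 84.9 for mt-Co1, 102 for mt-Nd5, 119 for mt-Nd2, 138 for mt-Nd4 and 158 for mt-Cytb. These folds are of CPM after TMM scaling, with factors of 0.576 to 0.731 in polysome and 1.15 to 1.28 in monosome libraries. The median 176-fold fall of the mitochondrial share was taken on plain library totals, so the folds of single genes are not on its scale. mt-Cytb and mt-Nd4 were among the 3 steepest in each pool. The size of the fall varied, since for mt-Rnr1 it ran from -5.31 to -2.45 on the log2 scale over pools and for mt-Cytb the largest fall was -8.47.

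**Figure D4:**
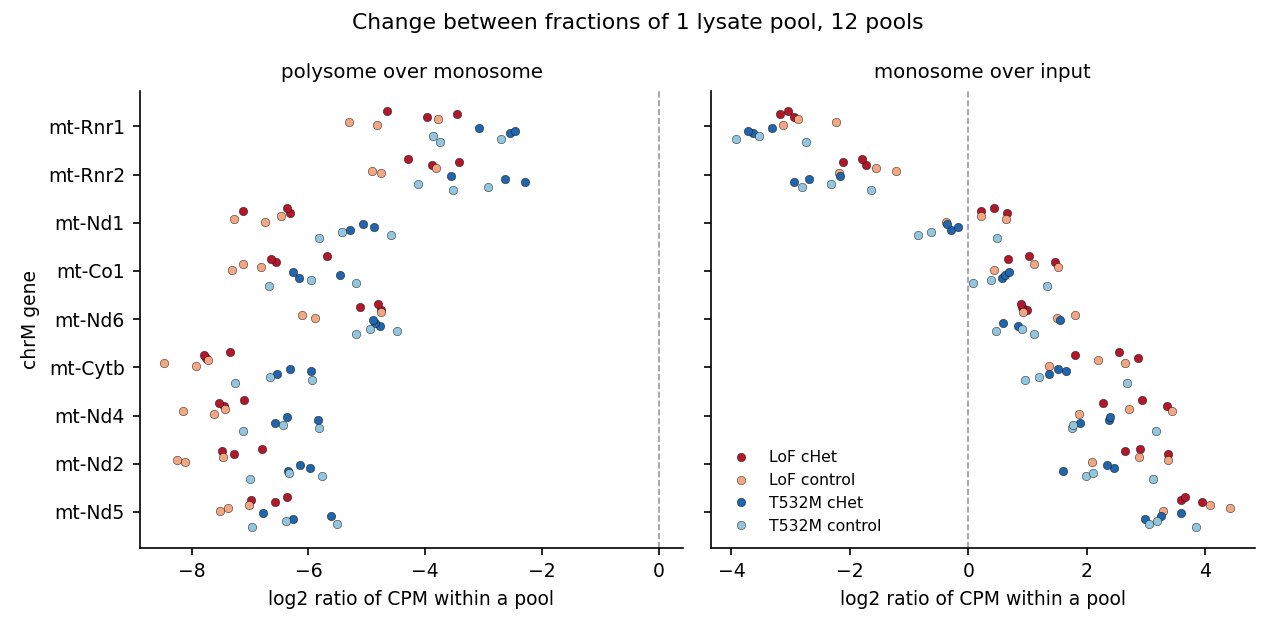
Log2 ratio of CPM between fractions of the same lysate pool for the 9 deeply counted mitochondrial RNAs (rows), polysome over monosome on the left and monosome over input on the right. Points are 12 pools coloured by group, and the dashed line marks no change. On the right mt-Rnr1 and mt-Rnr2 lie left of the line in all pools and mt-Nd5 lies farthest right, and on the left all genes lie far below 0 in all pools.

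The mRNAs of nuclear genes that make and keep mitochondrial RNA were called in both directions. In polysome against monosome of LoF controls 36.4% of all tested genes were called higher and 44.9% lower, and the counts below are set against these shares. For the replication and transcription of mitochondrial DNA 14 genes were tested. Of these 3 were higher and 9 lower, with a rise of 2.61 for Polrmt, the mitochondrial RNA polymerase, and a fall of -2.27 for Ssbp1, which binds single-stranded mitochondrial DNA (log2 fold changes). Of 24 genes for the processing and decay of mitochondrial RNA 10 were higher and 10 lower. Lrpprc and Slirp, whose proteins form a complex that steadies mitochondrial mRNAs, stood at opposite ends with 3.32 and -3.72, and Elac2, which trims the 3′ ends of transfer RNAs, rose by 3.23. Of 22 genes for mitochondrial ribosome assembly and translation 9 were higher and 8 lower, among them the elongation factors Gfm1 (3.28) and Tufm (2.37) and the assembly factor Malsu1 (-2.74).

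In T532M controls the same 3 lists had 3 higher and 9 lower, 10 and 12, and 9 and 7 in polysome against monosome, where 36% of all genes were called higher and 43.9% lower, with 2.69 for Polrmt, 3.51 for Lrpprc, -3.55 for Slirp and 3.34 for Gfm1. In monosome against input of LoF controls they had 5 higher and 4 lower, 7 and 8, and 4 and 12, where 32.2% of all genes were called higher and 30.6% lower. Mterf1b, a mitochondrial termination factor gene, rose by 2.49 and Tfam, which packages mitochondrial DNA, changed by -0.84. In T532M controls the numbers were 4 and 4, 8 and 8, and 4 and 12, where the shares of all genes were 32.1% and 31%. The median log2 fold changes of the 3 lists in polysome against monosome of LoF controls were -1.01, -0.10 and 0.02, beside -0.31 over all genes.

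Markers of the tissue and the targeted gene were checked in the same libraries. All 8 cortical markers were present, with summed levels of 3200 to 5540 CPM in polysome libraries, 2010 to 2560 CPM in monosome libraries and 2040 to 2590 CPM in input libraries. The choroid plexus marker Ttr exceeded 10 CPM in the input of 4 pools, which were LoF cHet 1 (38.5 CPM), LoF control 1 (157) and 3 (180), and T532M cHet 1 (181). Ddx3x was at 1900 CPM in LoF cHet against 2370 CPM in LoF control polysome, 206 against 297 CPM in monosome and 89.1 against 112 CPM in input, and none of these differences passed. In the T532M cross it was at 5190 against 3010 CPM in polysome, 310 against 318 CPM in monosome and 203 against 102 CPM in input, where the log2 fold change of 0.97 had an adjusted p of 0.264. Counts run over the whole gene, so they do not check the deletion.

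Whether Ddx3x alleles changed mitochondrial RNA was asked in each cross and fraction, and no mitochondrial gene passed in any of these comparisons. The LoF input came nearest. The share of chromosome M read pairs was 1.87 ± 0.250% in LoF cHet and 2.83 ± 0.504% in LoF control input (SD, n = 3 each), a difference of -0.955 percentage points. All 3 cHet pools lay below all 3 controls (exact permutation p = 0.1, the smallest that 3 against 3 allows, and adjusted p = 0.6 over 6 comparisons). In monosome the shares were 5.78 ± 1.01% in cHet and 7.89 ± 2.03% in controls (exact permutation p = 0.2), and the groups overlapped. In polysome they were 0.0308 ± 0.00910% in cHet and 0.0274 ± 0.00939% in controls (exact permutation p = 0.7).

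In the T532M cross the shares were 0.0420 ± 0.0120% in cHet and 0.0356 ± 0.00643% in control polysome (exact permutation p = 0.5). They were 5.15 ± 1.54% in cHet and 4.99 ± 1.55% in control monosome (exact permutation p = 0.7), and 2.63 ± 0.857% in cHet and 2.43 ± 0.407% in control input (exact permutation p = 0.8). The groups overlapped in all 3 fractions. Over both crosses together, with genotype permuted within each cross, the exact permutation p was 0.355 in polysome, 0.345 in monosome and 0.325 in input (adjusted p = 0.355 for each, 6 cHet and 6 control pools).

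Gene by gene in the LoF input, 0 of 14 mitochondrial genes passed in edgeR and 0 in DESeq2, where 0% of all tested genes passed in edgeR. With an unadjusted p under 0.05 were 4 of the 14 (edgeR), all lower, and 10.8% of all tested genes. For mt-Cytb cHet had 2630, 4126 and 2817 CPM, against 6765, 4650 and 4141 CPM in controls. The highest cHet library lay just below the lowest control. Its log2 fold change was -0.70 (SE 0.23, adjusted p = 0.274). For mt-Nd1 cHet had 2163, 2675 and 2228 CPM, against 4128, 3327 and 2956 CPM in controls (-0.56, SE 0.21, adjusted p = 0.31), and for mt-Nd4 cHet had 423.6, 575.8 and 427.1 CPM, against 1007, 652.5 and 588.8 CPM (-0.66, SE 0.26, adjusted p = 0.343). Neither gene overlapped between the groups, and how many of all genes separate in this way was not counted. mt-Nd2 was the last of the 4 (-0.58, adjusted p = 0.408), while mt-Nd6 had a log2 fold change of 0.01 and mt-Rnr1 of -0.14.

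The median log2 fold change of the 14 genes in LoF input was -0.37, beside -0.01 over all genes. With no low-count filter 4 members passed in edgeR, mt-Cytb, mt-Nd1 and mt-Nd4 among them (adjusted p = 0.00222, 0.0158 and 0.00317). Without LoF cHet input replicate 2 mt-Cytb passed (-0.93, adjusted p = 0.0488, edgeR). The share of all genes called in either fit is not given here, so these calls are not read as particular to mitochondrial genes. Without LoF control input replicate 1 the log2 fold changes were -0.46 for mt-Cytb and -0.38 for mt-Nd4. Other RNAs moved with the genotype in these libraries. The gene models over cytosolic ribosomal and small non-coding RNA took 4.44 to 5.27% of cHet and 0.566 to 1.70% of control input read pairs. With them out of the denominator the difference in the mitochondrial share was -0.896 percentage points. All 10 choroid plexus and hem markers were lower by sign (median log2 fold change -1.28), with a summed level of 10.8 to 57.7 CPM in cHet and 24.8 to 219 CPM in control input. Their part in the mitochondrial difference was not tested.

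In the LoF monosome 0 of 14 genes passed in edgeR and 0 in DESeq2, where 0.0108% of all genes passed in edgeR, and 4 of 14 had an unadjusted p under 0.05, as had 4.2% of all genes. All 14 log2 fold changes were below 0, with a median of -0.53, beside 0.01 over all genes. For mt-Nd6 cHet had 379.6, 278.6 and 310.6 CPM, against 463.4, 615.6 and 311.1 CPM in controls (-0.52, SE 0.21, adjusted p = 1.00). For mt-Rnr2 cHet had 76.5, 55.2 and 68.9 CPM, against 81.0, 132.3 and 76.9 CPM (-0.53, SE 0.22, adjusted p = 1.00), and for mt-Nd5 cHet had 5148, 3246 and 4648 CPM, against 5532, 9253 and 5416 CPM (-0.63, SE 0.29, adjusted p = 1.00). Control pool 2 was the highest library for each of them, and the other controls lay close to the cHet pools or overlapped them. mt-Rnr1 completed the 4 (-0.52, adjusted p = 1.00).

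Without LoF control monosome replicate 2 the log2 fold changes were -0.26 for mt-Nd6, -0.24 for mt-Rnr2 and -0.33 for mt-Nd5, so their size rested in large part on that library. Erythroid genes moved alongside, with 9 of 9 tested members lower by sign (median -0.61) and a summed level of 1044 to 1771 CPM in cHet and 1762 to 2362 CPM in control monosome. Their part was not tested. In the LoF polysome 0 of 14 passed in edgeR and 0 in DESeq2, with 0 at an unadjusted p under 0.05 (3.23% of all genes) and 0% of all genes called. The smallest p belonged to mt-Nd2, at 0.46 on the log2 scale (SE 0.27, adjusted p = 1). The median over the 14 was 0.08, with mt-Co2, mt-Co3 and mt-Tt at 0 read pairs in all 6 libraries.

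In the T532M cross 0 of 14 genes passed in each fraction, in edgeR and in DESeq2, where edgeR called 0% of all genes in polysome, 1.03% in monosome (0.976% higher and 0.0548% lower) and 0.00548% in input. Unadjusted p was under 0.05 for 2 genes in polysome, 1 in monosome and 1 in input, beside 7.92%, 11.8% and 10.7% of all genes. The polysome pair were the ribosomal RNAs. mt-Rnr1 was at 9.71, 7.33 and 5.78 CPM in cHet polysome, against 4.86, 5.06 and 3.39 CPM in controls, with no overlap (log2 fold change 0.79, SE 0.26, adjusted p = 0.505). How many of all genes separated likewise was not counted. mt-Rnr2 was at 18.7, 9.74 and 6.46 CPM in cHet, against 8.003, 7.05 and 5.33 CPM in controls, which overlapped (0.79, SE 0.36, adjusted p = 0.61). Without T532M cHet polysome replicate 1 the log2 fold change of mt-Rnr2 was 0.24. These levels rest on 186 to 297 read pairs per cHet and 112 to 162 per control library for mt-Rnr1. In the same libraries mt-Co1 was at 0.08 and mt-Nd6 at 0.00. Choroid plexus and hem markers moved with the genotype there, 9 of 10 higher by sign (median 2.68), as did 9 of 9 erythroid genes (median 0.33). Among them Ttr was at 45.6, 0.507 and 0.0311 CPM in cHet polysome, against 0.03, 0 and 0.0303 CPM in controls. The difference of Ttr thus rested mostly on cHet pool 1. Gene models over cytosolic ribosomal and small non-coding RNA took 0.963 to 1.51% of cHet and 1.42 to 1.81% of control polysome read pairs. Their part was not tested.

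In T532M monosome the gene with the smallest p was mt-Tt (2.22, SE 0.97, adjusted p = 0.39), on 6 read pairs in cHet and 1 in controls. In T532M input it was mt-Tt again (-0.94, SE 0.40, adjusted p = 0.432), on 66 read pairs in cHet and 123 in controls. mt-Tl1 followed there with -0.73 (adjusted p = 0.474) and mt-Nd2 with 0.36 (adjusted p = 0.735), and mt-Nd2 turned to -0.28 without T532M cHet input replicate 1. Medians over the 14 genes were 0.23 in polysome, 0.08 in monosome and 0.09 in input, beside -0.02, -0.05 and -0.00 over all genes.

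**Figure D5:**
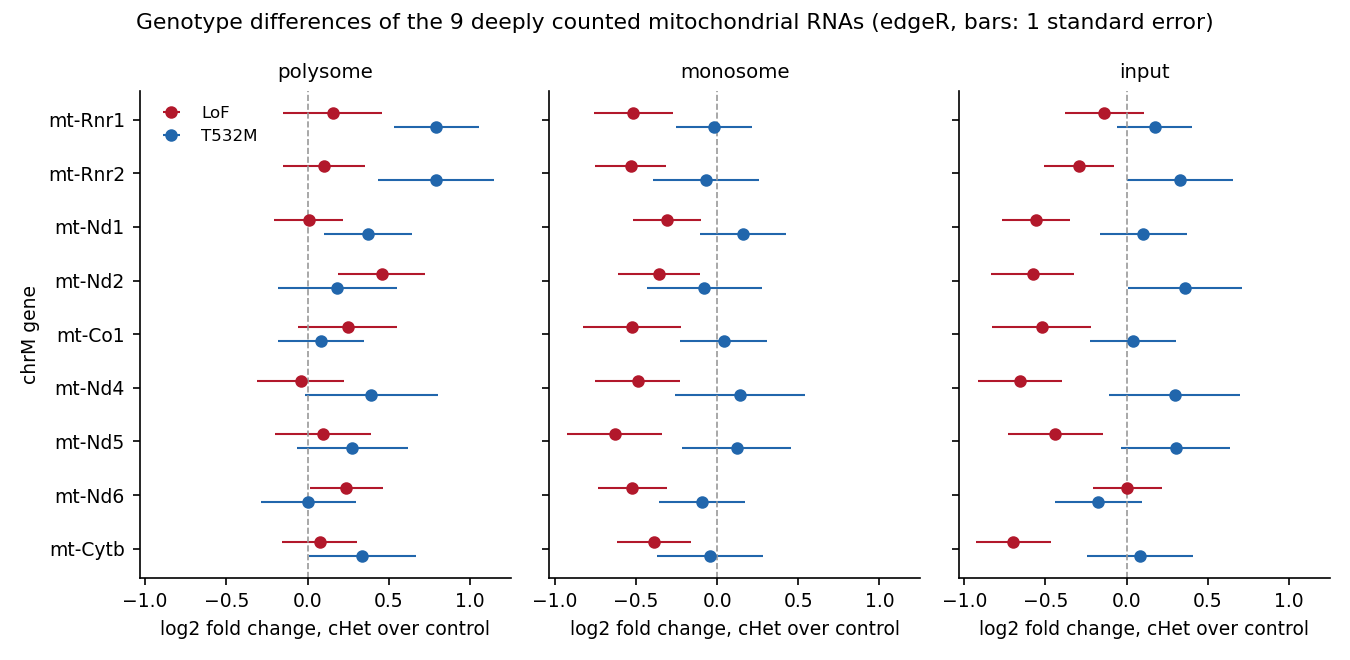
Log2 fold change of cHet over control for the 9 deeply counted mitochondrial RNAs (rows) in polysome, monosome and input, for the LoF and T532M crosses. Points are edgeR estimates and bars are 1 standard error, and the dashed line marks no change. LoF points lie left of the line for all 9 genes in monosome and for 8 in input, and none passed an adjusted p of 0.05.

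Whether a genotype difference changed between fractions was tested with an interaction term, and 0 of 14 genes passed in edgeR or DESeq2 for polysome over monosome or monosome over input in either cross. edgeR called 0% of all genes in both LoF tests and, in the T532M cross, 0.0603% for polysome over monosome and 0.00548% for monosome over input. In the LoF cross polysome over monosome had 2 genes with an unadjusted p under 0.05, mt-Nd6 (0.76, SE 0.31) and mt-Nd2 (0.82, SE 0.37), both with an adjusted p of 1.00, where 3.02% of all genes were under that threshold. Without LoF control monosome replicate 2 the change of mt-Nd6 was 0.50. Monosome over input had 0 such members, beside 5.04% of all genes. In the T532M cross there were 2 for polysome over monosome, mt-Rnr1 (0.81, SE 0.35, adjusted p = 0.654) and mt-Tl1, and 2 for monosome over input, mt-Tt and mt-Tl1, beside 6.85% and 5.91% of all genes. Without T532M control monosome replicate 1 the change of mt-Rnr1 was 0.54.

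The difference between the LoF and the T532M genotype effects was tested on all 36 libraries, and 0 of 14 genes passed in each fraction, in edgeR and in DESeq2. edgeR called 0% of all genes in polysome, 0% in monosome and 0.0105% in input. An unadjusted p under 0.05 was reached by 0 genes in polysome, by mt-Tl1, mt-Tt and mt-Co3 in monosome and by mt-Nd2 in input (-0.96, SE 0.47, adjusted p = 0.305), beside 5.59%, 6.69% and 15.9% of all genes. Without T532M cHet input replicate 1 this difference of mt-Nd2 was -0.31. The median difference over the 14 genes was -0.21 in polysome, -0.54 in monosome and -0.61 in input. The labels do not say whether the 2 crosses were processed together.

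The make-up of the mitochondrial reads was also compared by genotype. In input the rRNA share of chromosome M read pairs was 4.63 ± 0.599% in cHet and 3.88 ± 0.658% in controls (SD, n = 6 each, exact permutation within crosses p = 0.02, adjusted p = 0.06 over 3 fractions). The difference was 0.982 percentage points in the LoF and 0.516 in the T532M cross, and without LoF cHet pool 2 the adjusted p was 0.015. A share also depends on the level of the mRNAs. In LoF input mt-Rnr1 was at 441.1, 373.7 and 412 CPM in cHet, against 472.3, 491.3 and 387.5 CPM in controls, so it was not higher. In T532M input the mt-Rnr1 levels of cHet and controls overlapped. Gene models over cytosolic ribosomal and small non-coding RNA took 4.44 to 5.27% of LoF cHet and 0.566 to 1.70% of LoF control input read pairs. Their part was not tested. In monosome the shares were 0.277 ± 0.0528% in cHet and 0.288 ± 0.0531% in controls (exact permutation p = 0.47). In polysome they were 2.41 ± 0.936% in cHet and 1.92 ± 0.472% in controls (exact permutation p = 0.27). None passed the adjusted threshold. Of the 3 nuclear gene lists named above, 0 of 14, 0 of 24 and 0 of 22 tested genes passed in edgeR in each of the 6 genotype comparisons. With an unadjusted p under 0.05 there were 0, 0 and 0 of them in LoF polysome, 0, 2 and 0 in LoF monosome, and 0, 7 and 2 in LoF input. In the T532M cross there were 0, 1 and 1 in polysome, 0, 5 and 6 in monosome, and 0, 3 and 2 in input. The shares of all genes under that threshold are those given above for each comparison.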

How the data were processed

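RNA was sequenced from polysome, monosome and input samples of 12 pools of mouse cortex, giving 36 libraries in 12 groups of 3. The values are counts of read pairs per gene. Per the file headers, the authors counted with featureCounts 2.0.3 over whole gene spans of the GENCODE vM25 annotation (GRCm38), on the reverse strand (setting 2), for pairs with both ends mapped, and without the options that keep multi-mapped pairs or pairs overlapping several genes. Per the submitters' processing notes, the tools were STAR 2.7.11a, Subread 2.0.3, FastQC 0.11.7 and DESeq2 1.34.0. The libraries were made with the KAPA HyperPrep kit and 50-base reads, per the labels' protocols, from 12 fractions of a 15 to 50% sucrose gradient, and which fractions were joined is not stated there. Read pairs per library ranged from 36999365 to 57935512. The authors' own deposited comparison tables were not used here.

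Genes were tested with edgeR 4.0.16 (quasi-likelihood, TMM scaling, filterByExpr, Benjamini-Hochberg adjustment over all genes tested, threshold 0.05) in R 4.3.3, with 1 fit per cross on its 18 libraries and 1 fit on all 36 for the difference between crosses. The adjusted p-values named in the report come from these fits, unless an exact permutation test is named. CPM used the TMM library sizes of the 36-library fit, so levels are relative to a library. Shares were tested with exact two-sided permutation tests (scipy 1.17.1), and correlations with 100000 permutations where enumeration was too long. Exact 95% intervals and floors of 3 counts cover counting error only. Sequences came from GENCODE release M21 transcripts, and figures from matplotlib 3.10.9. The edgeR procedure was tested on simulated data.

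The labels number the polysome, monosome and input library of a pool alike. As a check, libraries of the same pool correlated in their deviations from the group means (median r 0.19, range 0.06 to 0.43, 32 of 36 pairs above 0.1), and each of the 36 correlated best with its own pool. Values were named by class: all mRNA and rRNA genes, and transfer RNA genes that passed the filter. Statistics are given in full for members past the threshold, and otherwise for the 3 with the smallest p. The mitochondrial chromosome as a subject and the gene lists were chosen with earlier results of these data known. The members were then all genes of that chromosome, whatever their values. Alternatives were DESeq2 1.42.0, other size factors, no low-count filter, scaling without mitochondrial genes, a replicate block, only the libraries of a comparison, and leaving out each replicate.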

Additional observations from a re-analysis of the deposited data

How the results depend on the processing

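Of 1701 alternative values for 119 results, 1670 kept their direction and their side of the threshold or stayed within the spread, 2 were weaker, 10 stronger, 4 moved and 15 reversed. With no filter on low counts, 4 members passed in LoF input in place of 0, and the share of all genes called in that fit is not given here. Leaving out 1 replicate each gave 0 to 1 there. Without the 4 pools rich in Ttr, chosen after seeing the data, the number was 9 in LoF monosome and 1 in the LoF change of polysome over monosome, each in place of 0. This leaves 1 LoF control pool, the one with the highest monosome share, whose spread is assumed to be that of the other groups, so these calls support nothing. In the same setting mt-Nd2 in T532M input was at -0.28, the LoF minus T532M difference of mt-Nd4 in input was 0.021, and the cHet minus control difference in the mitochondrial share was -0.00692 percentage points in LoF polysome, -0.29 in T532M input, -0.716 in T532M monosome and -0.00281 in polysome over both crosses.

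Leaving out 1 replicate each, mt-Nd2 in T532M input ranged from -0.28 to 0.66. The share difference ranged from -0.00116 to 0.00859 in LoF polysome, -0.29 to 0.481 in T532M input and -0.716 to 1.04 in T532M monosome. The cHet minus control difference in the rRNA share ranged from 0.586 to 0.963 in input, where the adjusted p was 0.015 without LoF cHet pool 2 and 0.045 without T532M control pool 3, and from -0.0293 to 0.00656 in monosome. The counts of called members ranged from 13 to 14 for LoF polysome against monosome, 10 to 12 for T532M polysome against monosome and 10 to 11 for T532M monosome against input. mt-Tt in LoF monosome against input was at -2.85 (adjusted p = 0.115, edgeR) without the pools rich in Ttr.

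The pool as a replicate block changed no call among 60 values, and the replicate number as a block across genotypes changed none among 96. Across genotypes 5 of 18 pairs of the same number correlated above 0.1 (range -0.32 to 0.19), and 7 of 18 correlated best with their own number. In LoF input r was -0.239, -0.245 and -0.0517. In T532M monosome r was 0.0804, 0.134 and 0.154, and each library correlated best with its own number. Whether the numbers pair cHet and control samples in the T532M cross therefore cannot be told. Depth limits mt-Atp8, mt-Atp6, mt-Nd4l and the transfer RNAs, most of all in polysome.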

Other observations

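mt-Nd6 and mt-Nd5 overlap on opposite strands, and their read pairs stood in different ratios in the 3 fractions. Per group, mt-Nd6 read pairs as a percent of mt-Nd5 read pairs ranged in polysome from 19.7 to 31.5% in LoF cHet and 16 to 27.5% in LoF controls, and from 9.08 to 18.8% in T532M cHet and 11.2 to 19.6% in T532M controls. In monosome the ranges were 6.68 to 8.58% in LoF cHet and 5.75 to 8.38% in LoF controls, and 4.54 to 5.40% in T532M cHet and 5.49 to 5.94% in T532M controls. In input they were 45.8 to 57.2% in LoF cHet and 29 to 51.5% in LoF controls, and 20.1 to 34.2% in T532M cHet and 29 to 37.8% in T532M controls. The monosome range lay below both others in each of the 4 groups, and no test was made of these ratios.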
